A study of Mus musculus with 12 samples.

Results

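The genes described here are 9 transcription factor genes known for setting or keeping the type of a muscle fiber, namely Six4, Eya1, Tbx15, Sox6, Prox1, Nfatc1, Mef2c, Maf and Mafa. They were found by gene symbol among the 17752 genes of the expression table. RNA came from the EDL (extensor digitorum longus, a hind limb muscle made mostly of fast fibers) of male mice labelled WT or strNrip1-/-. One set of each genotype stayed sedentary and another ran on voluntary wheels for 8 weeks, starting at 8 weeks of age. This gave 4 groups of 3 libraries and 12 in all. Per the study's methods the wheels were taken out of the cages before the endpoints. In the strNrip1-/- line loxP sites flank the exon that holds the Nrip1 coding sequence, and Cre recombinase is driven by the muscle creatine kinase promoter, active in heart and skeletal muscle. The controls were littermates without Cre, and the cross joined floxed C57BL/6J mice with Cre mice on C57BL/6JN. Nrip1 encodes RIP140, a corepressor of nuclear receptors. The comparisons ask whether expression of these regulators differs with the labelled genotype, with training, or with both.

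Skeletal muscle fibers are slow (type 1) or fast (types 2A, 2X and 2B), according to the myosin heavy chain they hold. The homeodomain factor SIX4 with EYA cofactors, TBX15, MAFA and c-MAF (Maf) act on the fast side. MAFA and c-MAF are known to drive the type 2B myosin gene Myh4. SOX6 represses slow genes in fast fibers. PROX1, the calcium-responsive NFATc1 and MEF2C are known on the slow and oxidative side.

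The targeted gene went against the genotype labels. Nrip1 was listed at 3.598, 2.55 and 3.84 FPKM (fragments per kilobase of transcript, scaled by depth) in the sedentary and at 2.53, 4.76 and 3.56 FPKM in the trained libraries labelled WT. It stood at 15.5, 16.3 and 14.9 FPKM in the sedentary and at 20.7, 14.9 and 16.6 FPKM in the trained libraries labelled strNrip1-/-. The deposited gene-level value does not show which exons the fragments came from. The labels are therefore written as labels throughout, and every genotype direction below rests on them. Among the other genes that separated the labelled genotypes, Mb (myoglobin, the oxygen store of oxidative fibers) was 2573 ± 559 and 2919 ± 500 FPKM (SD, n = 3) in labelled WT and 4682 ± 971 and 4914 ± 485 FPKM in labelled strNrip1-/- libraries, sedentary and trained, with all 6 of the latter above all 6 of the former. Such separation, with the labelled strNrip1-/- side higher, was seen in 2.97% of all tested genes. Myofiber markers were high in all 12 libraries, and their summed level was lower in every library labelled strNrip1-/-. It was 44800 to 47600 FPKM in labelled WT sedentary, 46700 to 54900 FPKM in labelled WT trained, 35900 to 42500 FPKM in labelled strNrip1-/- sedentary and 42200 to 44600 FPKM in labelled strNrip1-/- trained libraries. A level of 1 FPKM corresponded to 20.1 to 29.6 fragments per kilobase of effective length. Slow muscle genes marked out 3 libraries, in which Myh7, the type 1 myosin, exceeded 15 FPKM: labelled WT sedentary replicate 2 (24.8 FPKM), labelled WT trained replicate 2 (49.99 FPKM) and labelled strNrip1-/- sedentary replicate 1 (19.4 FPKM). The other 9 libraries held 1.07 to 5.74 FPKM.

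The 9 genes spanned a wide range of levels per kilobase. Tbx15 was the highest at a mean of 129 FPKM over the 12 libraries, followed by Mef2c (92.5 FPKM), Maf (48.4 FPKM) and Mafa (40.1 FPKM). Sox6 (13.3 FPKM), Eya1 (9.24 FPKM), Nfatc1 (8.91 FPKM) and Six4 (3.29 FPKM) were lower, and Prox1 was the lowest at 0.201 FPKM. Prox1 fell under the filter of a mean of 0.5 FPKM, so 8 of the 9 genes entered the fit over 12744 genes.

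**Figure D1:**
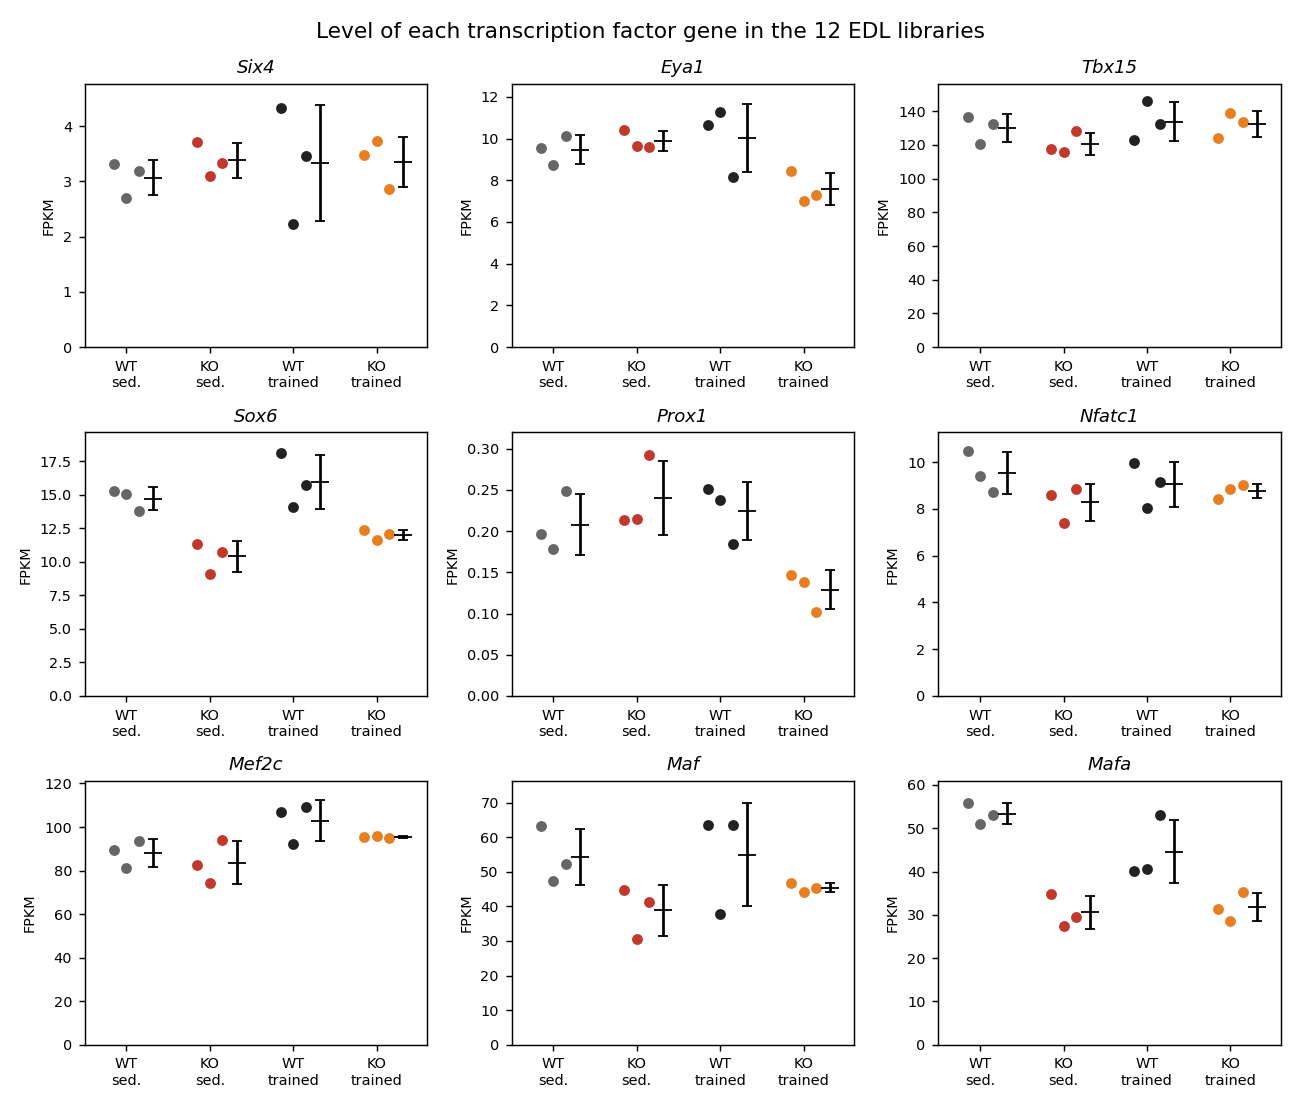
FPKM of each of the 9 genes (vertical axes from 0, each with its own scale) in the 3 libraries of each group, where KO stands for labelled strNrip1-/-. Points are libraries and the dash with bars is the mean ± SD. For Mafa and Sox6 all 6 libraries labelled strNrip1-/- lie below all 6 labelled WT.

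Mafa and Sox6 were lower in the libraries labelled strNrip1-/-, and no other member was called in a genotype comparison. A gene was called with limma at a Benjamini-Hochberg adjusted p under 0.05 and a fold change above 1.2 on the log2(FPKM + 0.5) scale. In sedentary libraries 2 of the 8 tested members were called, both lower, against 3.51% of all tested genes called. In trained libraries 1 of 8 was called, lower, against 5.98%. For the mean of both training states 2 of 8 were called, both lower, against 8.8%.

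Mafa (ENSMUSG00000047591; chromosome 15, 75745490 to 75748228, minus strand, GRCm38), a gene with 1 annotated transcript, showed the largest genotype difference of the 8 tested members. Its level was 55.9, 51.1 and 53.0 FPKM in labelled WT sedentary libraries and 34.9, 27.4 and 29.4 FPKM in labelled strNrip1-/- sedentary libraries. In trained libraries it was 40.1, 40.6 and 53.0 FPKM for labelled WT and 31.4, 28.7 and 35.2 FPKM for labelled strNrip1-/-. The labelled genotypes did not overlap in either training state. Such separation of all 6 libraries against all 6, with the labelled strNrip1-/- side lower, was seen in 3.23% of all tested genes. The log2 fold change was -0.80 (SE 0.12, limma adjusted p = 0.0057) in sedentary libraries. It was -0.48 (SE 0.12, limma adjusted p = 0.0459) in trained libraries and -0.64 (SE 0.087, limma adjusted p = 9.0e-04) over both. The 2 effects differed by 0.33 (SE 0.17), which was not significant in the interaction test (limma adjusted p = 0.676). The trained call was close to the threshold and was lost in 16 of 24 alternatives, including the omission of any 1 library other than labelled strNrip1-/- sedentary replicate 1 or 2 (adjusted p = 0.0514 to 0.162 in limma). The sedentary call held in all 24. Cell markers also differed between the labelled genotypes. Over both training states 3 of 12 endothelial markers were called higher, with all 12 above 0, against 4.9% of all tested genes called higher. Of the 5 myofiber markers 2 were called lower, against 3.91% of all tested genes, and 1 (Mb) was called higher. Endothelial markers summed to 168 to 190 FPKM in labelled WT and 198 to 229 FPKM in labelled strNrip1-/- libraries. The part of either in the Mafa and Sox6 differences was not tested.

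Sox6 (ENSMUSG00000051910; chromosome 7, 115470872 to 116038796, minus strand) was the second gene. It measured 15.3, 15.1 and 13.7 FPKM in labelled WT sedentary, and 11.3, 9.08 and 10.8 FPKM in labelled strNrip1-/- sedentary libraries. In trained libraries it was 18.1, 14.1 and 15.7 FPKM for labelled WT and 12.4, 11.6 and 12.1 FPKM for labelled strNrip1-/-. As for Mafa, no library labelled strNrip1-/- reached the lowest labelled WT library. The log2 fold change was -0.48 (SE 0.10, limma adjusted p = 0.0289) in sedentary and -0.44 (SE 0.074, limma adjusted p = 0.0033) over both training states. In trained libraries the value was -0.39 (SE 0.10), which missed the threshold (limma adjusted p = 0.0528). The sedentary call was lost in 8 of 24 alternatives. It was lost when any of the 3 labelled WT sedentary libraries or labelled strNrip1-/- sedentary replicate 2 or 3 was left out (limma adjusted p = 0.0520 to 0.118). The same held with the same sum of nuclear genes (limma adjusted p = 0.214) and with only the 6 libraries compared (limma adjusted p = 0.0966). It also held without the 3 libraries with Myh7 above 15 FPKM (limma adjusted p = 0.0936). Sox6, Eya1, Tbx15, Prox1, Nfatc1 and Maf overlap annotated genes on the opposite strand. This overlap was taken over whole gene spans, and overlap of exons was not checked. The libraries did not keep strand, so reads from any shared exon could not be separated by strand.

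Maf (ENSMUSG00000055435; chromosome 8, 115682942 to 115707794, minus strand) showed wider spread. It stood at 63.2, 47.4 and 52.4 FPKM in labelled WT sedentary libraries and at 44.7, 30.6 and 41.3 FPKM in labelled strNrip1-/- sedentary libraries. In trained libraries it was 63.6, 37.8 and 63.6 FPKM for labelled WT and 46.8, 44.2 and 45.2 FPKM for labelled strNrip1-/-. The lowest labelled WT trained library was the one with the highest Myh7, and it fell under all 3 labelled strNrip1-/- trained libraries. The genotype difference over both training states was -0.36 on the log2 scale (SE 0.14) and was not called (limma adjusted p = 0.139). Without that library the value was -0.48 and was called (limma adjusted p = 0.0142). This was the only 1 of the 12 omissions of a single library that led to a call. Without the 3 libraries with Myh7 above 15 FPKM, an alternative chosen after the data were seen, it was -0.58 (limma adjusted p = 0.0128). Of 23 alternatives 3 called Maf over both training states and 20 did not (limma adjusted p up to 0.354). The part of slow fibers in the Maf result was not tested.

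The remaining fast-side members were not called. Six4 (ENSMUSG00000034460; chromosome 12, 73099609 to 73113456, minus strand), a homeodomain factor, ranged from 2.23 to 4.32 FPKM, and both extremes were labelled WT trained libraries. Its values were 3.31, 2.70 and 3.19 FPKM in labelled WT sedentary, 3.72, 3.09 and 3.33 FPKM in labelled strNrip1-/- sedentary, 4.32, 2.23 and 3.46 FPKM in labelled WT trained and 3.48, 3.72 and 2.85 FPKM in labelled strNrip1-/- trained libraries. All neighbouring groups overlapped in their order of level.

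Tbx15 (ENSMUSG00000027868; chromosome 3, 99240381 to 99354259, plus strand), a T-box factor, was the steadiest of the 9, with 1.26 times between its lowest and highest library. It was 137, 121 and 133 FPKM in labelled WT sedentary, 117, 116 and 128 FPKM in labelled strNrip1-/- sedentary, 123, 146 and 133 FPKM in labelled WT trained and 124, 139 and 133 FPKM in labelled strNrip1-/- trained libraries. The genotype difference over both training states was -0.061 (95% interval -0.19 to 0.066, limma adjusted p = 0.589).

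Eya1 (ENSMUSG00000025932; chromosome 1, 14168954 to 14310235, minus strand), a cofactor and phosphatase that works with SIX4 and its relatives, was lowest in the trained libraries labelled strNrip1-/-. These held 8.46, 6.999 and 7.28 FPKM, against 10.6, 11.3 and 8.17 FPKM in labelled WT trained libraries. Sedentary libraries held 9.55, 8.75 and 10.1 FPKM for labelled WT and 10.4, 9.63 and 9.59 FPKM for labelled strNrip1-/-. The trained groups overlapped, whereas both sedentary groups lay above all 3 trained libraries labelled strNrip1-/-. The share of all tested genes with such an order was not counted. The trained genotype difference of -0.37 (SE 0.12) was not called (limma adjusted p = 0.0940), nor was the difference with training in labelled strNrip1-/- of -0.36 (SE 0.12, limma adjusted p = 0.285). The interaction was -0.43 (SE 0.17, limma adjusted p = 0.617).

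On the slow and oxidative side, Nfatc1 (ENSMUSG00000033016) was 10.5, 9.43 and 8.72 FPKM in labelled WT sedentary and 8.61, 7.40 and 8.87 FPKM in labelled strNrip1-/- sedentary libraries. In trained libraries it was 9.97, 8.06 and 9.13 FPKM for labelled WT and 8.42, 8.86 and 9.004 FPKM for labelled strNrip1-/-. Neighbouring groups overlapped throughout. The sedentary genotype difference was -0.19 (95% interval -0.42 to 0.034, limma adjusted p = 0.4003).

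Mef2c (ENSMUSG00000005583; chromosome 13, 83504034 to 83667080, plus strand), a MADS-box factor, had its highest group mean in labelled WT trained libraries, at 107, 92.3 and 109 FPKM, followed by labelled strNrip1-/- trained libraries at 95.3, 96.1 and 94.9 FPKM. It was 89.5, 81.1 and 93.6 FPKM in labelled WT sedentary and 82.6, 74.3 and 93.8 FPKM in labelled strNrip1-/- sedentary libraries. The trained and sedentary libraries overlapped within labelled WT. Within labelled strNrip1-/- they did not, with 93.8 against 94.9 FPKM at the closest. The share of all tested genes with such a separation was not counted. The training difference over both labelled genotypes was 0.21 (SE 0.067) and was not called (limma adjusted p = 0.227). MEF2C is also known in endothelium. Of the endothelial list, 0 of 12 genes were called for training over both genotypes in limma (3 at an unadjusted p under 0.05), a contrast in which 0.118% of all tested genes were called. Its summed level was 185 to 190 FPKM and 198 to 229 FPKM in sedentary libraries labelled WT and strNrip1-/-, and 168 to 188 FPKM and 208 to 218 FPKM in trained ones. Its part in the Mef2c values was not tested.

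Prox1 (ENSMUSG00000010175; chromosome 1, 190118035 to 190170714, minus strand) was near the lower limit of these libraries. It was 0.197, 0.178 and 0.249 FPKM in labelled WT sedentary, 0.214, 0.215 and 0.292 FPKM in labelled strNrip1-/- sedentary, 0.251, 0.238 and 0.184 FPKM in labelled WT trained and 0.147, 0.138 and 0.102 FPKM in labelled strNrip1-/- trained libraries. These values stand for about 8.13 to 21.3 fragments on the shortest annotated transcript (3144 nt) and 22.0 to 57.5 on the longest (7913 nt). The 3 trained libraries labelled strNrip1-/- were the lowest of the 12. The share of all genes with such an order was not counted. An exact two-sided permutation test of log2(FPKM + 0.5) gave p = 0.1 for the trained genotype difference (-0.20) and for training within labelled strNrip1-/- (-0.23), which is the smallest p that 3 libraries against 3 allow. The 0.5 added exceeds every value of this gene, so these log2 differences understate the change in FPKM. Mean levels were 0.224 FPKM in labelled WT trained, 0.129 FPKM in labelled strNrip1-/- trained and 0.240 FPKM in labelled strNrip1-/- sedentary libraries. Over both training states the genotype difference was -0.070 (exact permutation p = 0.27). PROX1 also marks lymphatic endothelium, whose listed markers summed to 5.51 to 8.66 FPKM over the 12 libraries. For the genotype difference over both training states 0 of its 5 tested genes were called in limma, against 8.8% of all tested genes (1 at an unadjusted p under 0.05). In trained libraries 0 of 5 were called, against 5.98% (1 at an unadjusted p under 0.05, 3 above 0 and 2 below, median 0.32). For training in labelled strNrip1-/- 0 of 5 were called, against 0.0% (0 at an unadjusted p under 0.05, 2 above 0 and 3 below, median -0.029). The part of these cells in the Prox1 values was not tested. In bulk muscle, fewer cells of a type and less RNA per cell cannot be told apart.

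Training moved no member past the threshold. None of the 8 was called in labelled WT, in labelled strNrip1-/- or in the interaction, against 0.0% of all tested genes in each of these limma contrasts. At an unadjusted p under 0.05 there was 1 member in each (Mef2c in labelled WT, Eya1 in labelled strNrip1-/- and in the interaction), and 1061, 1544 and 989 of all tested genes. For training over both labelled genotypes 0 of 8 members were called, with 1 (Mef2c) at an unadjusted p under 0.05, against 0.118% of all tested genes called.

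**Figure D2:**
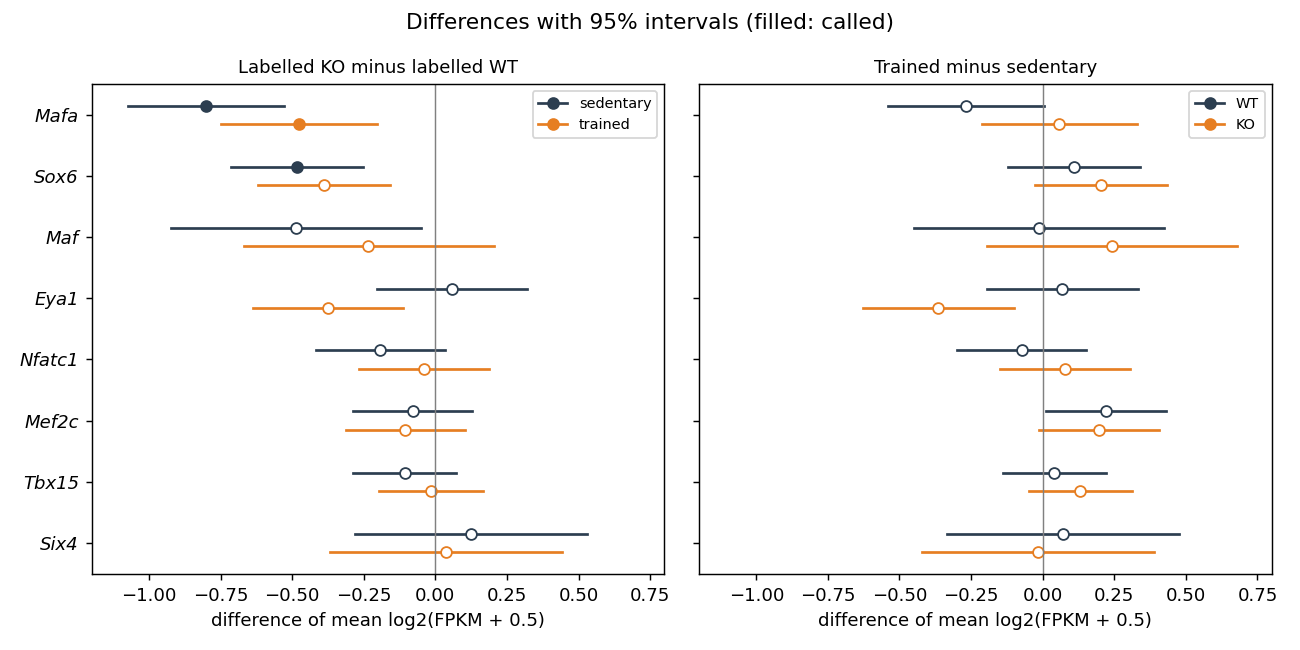
Differences of mean log2(FPKM + 0.5) with 95% intervals for the 8 tested members, for labelled strNrip1-/- (KO) minus labelled WT on the left and trained minus sedentary on the right. Filled points are called: Mafa in sedentary and trained libraries, and Sox6 in sedentary libraries.

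Genes related to the members were then counted, for the genotype difference over both training states. In that contrast 8.8% of all tested genes were called (4.9% higher, 3.91% lower), 3072 of 12744 had an unadjusted p under 0.05, and the median log2 fold change was 0.0034. Of 8 homeobox, Eya and Dach genes listed as relatives of Six4 and Eya1, 1 rose and 1 fell (3 at an unadjusted p under 0.05, median 0.033). Dach2, a corepressor of the same network, was 0.209 ± 0.0683 and 0.485 ± 0.139 FPKM (SD, n = 3) in labelled WT and 0.841 ± 0.0992 and 0.904 ± 0.219 FPKM in labelled strNrip1-/- libraries, sedentary and trained. It rose by 0.72 on the log2 scale over both (SE 0.12, limma adjusted p = 0.0031). Its mean was 0.347 FPKM in labelled WT, under the filter of 0.5 FPKM, and 0.873 FPKM in labelled strNrip1-/-, so it was tested only through the group in which it was higher. With a pseudocount of 0.1 in place of 0.5 its difference was 1.21. Eya4 fell by 0.33 on the log2 scale over both training states (limma adjusted p = 0.0111), a call lost with either rescaling to a common sum and without the 3 libraries with Myh7 above 15 FPKM (limma adjusted p up to 0.139). Of the SOXD and TBX relatives 0 of 2 tested were called in limma, against the same 8.8% (1 at an unadjusted p under 0.05).

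The signalling genes upstream of NFAT and MEF2 were mostly not called. Of the 16 calcineurin and NFAT genes 1 fell over both training states, against 8.8% of all tested genes called (9 at an unadjusted p under 0.05, median -0.028). It was Ppp3r1, the regulatory subunit of calcineurin, at -0.32 (SE 0.039, limma adjusted p = 4.3e-04). With libraries rescaled to the same sum of nuclear genes it was -0.26 (limma adjusted p = 0.0133), under the fold change limit, and was not called. The catalytic subunit gene Ppp3cb fell by 0.36 in trained libraries (limma adjusted p = 0.0068), a call lost with either rescaling (limma adjusted p up to 0.102). Among 12 tested MEF2 genes, class IIa HDACs and their kinases 1 rose and 1 fell, against the same 8.8% (5 at an unadjusted p under 0.05, median -0.068). Camk2a, a calcium/calmodulin-dependent kinase, went from 251 ± 26.2 to 184 ± 20.7 FPKM (SD, n = 3) in sedentary libraries and from 267 ± 6.14 to 175 ± 3.05 FPKM in trained libraries, with no overlap of the labelled genotypes. Separation of all 6 libraries against all 6, with the labelled strNrip1-/- side lower, was seen in 3.23% of all tested genes. The log2 fold change of Camk2a over both was -0.53 (SE 0.064, limma adjusted p = 4.3e-04). Hdac7 rose by 0.35 over both (limma adjusted p = 0.0178), a call lost with rescaling to the same sum and without the 3 libraries with Myh7 above 15 FPKM (limma adjusted p up to 0.104). Mef2a fell by 0.31 in trained libraries (limma adjusted p = 0.0187), a call lost without labelled WT trained replicate 1 or 3 or labelled strNrip1-/- trained replicate 2 or 3 (limma adjusted p up to 0.0834) and with either rescaling (up to 0.289). Of 7 tested large and small MAF genes and partners 1 rose and 0 fell over both training states, against the same 8.8% (2 at an unadjusted p under 0.05, median -0.038). In trained libraries 0 rose and 1 fell, against 5.98% (4 above 0 and 3 below, median 0.092). The 1 that fell was Mafg, a small MAF gene that partners other basic leucine zipper proteins. It fell by 0.29 in trained libraries (limma adjusted p = 0.0321), a call lost without replicate 2 or 3 of either trained group (limma adjusted p up to 0.129) and with either rescaling (up to 0.236).

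Of the 12 fast fiber genes 7 fell and none rose over both training states, against 3.91% of all tested genes called lower (10 at an unadjusted p under 0.05, median -0.38). Over the alternatives 4 to 8 were called, with 4 called without labelled strNrip1-/- sedentary replicate 1 or without the 3 libraries with Myh7 above 15 FPKM. Some of the calls, that of Myh4 among them, were also lost without the filter (limma adjusted p up to 0.125) and with quantile normalization. Actn3, the fast-fiber α-actinin, went from 3286 ± 297 to 1752 ± 96.8 FPKM (SD, n = 3) in sedentary libraries. The trained libraries held 3117 ± 83.0 FPKM (labelled WT) and 1854 ± 98.4 FPKM (labelled strNrip1-/-). Over both it fell by 0.83 (SE 0.059, limma adjusted p = 1.4e-05). Mybpc2 and Casq1, which encode fast myosin-binding protein C and a calcium store protein, fell by 0.53 (limma adjusted p = 1.5e-04) and by 0.61 (limma adjusted p = 5.5e-04) over both. Myh4, the type 2B myosin, was 9446 ± 1041 and 10540 ± 384 FPKM in labelled WT and 7401 ± 913 and 8107 ± 955 FPKM in labelled strNrip1-/- libraries, sedentary and trained. It fell by 0.37 over both (SE 0.090, limma adjusted p = 0.0223), a call lost in 10 of 23 alternatives. Among these were the omission of sedentary replicate 1 or 3 or trained replicate 1 or 3 of labelled WT. Sedentary replicate 1 and trained replicate 3 of labelled strNrip1-/- had the same effect (limma adjusted p up to 0.0620 for these omissions). The call was also lost with the same sum of nuclear genes (limma adjusted p = 0.107) and with quantile normalization (limma adjusted p = 0.0903). So it was without the filter (limma adjusted p = 0.0725) and without the 3 libraries with Myh7 above 15 FPKM (limma adjusted p = 0.0641). Myh2, the type 2A myosin, was 207 ± 39.2 FPKM in labelled WT and 207 ± 23.8 FPKM in labelled strNrip1-/- sedentary libraries (difference 0.014, 95% interval -0.28 to 0.30, limma adjusted p = 0.976). It rose by 0.71 in trained libraries (SE 0.13, limma adjusted p = 0.0109), from 214 ± 4.39 to 352 ± 35.8 FPKM, and missed the threshold without labelled strNrip1-/- trained replicate 2 (limma adjusted p = 0.0520). The 2 effects differed by 0.69 (SE 0.19), which the interaction test did not call (limma adjusted p = 0.536). For Myh1, the type 2X myosin, the difference over both was 0.30 (SE 0.12, limma adjusted p = 0.165). None of the 10 slow fiber genes was called in limma, against 8.8% of all tested genes (2 at an unadjusted p under 0.05, 3 above 0 and 7 below, median -0.19), and Myh7 differed by -0.64 with an SE of 0.97. In the 3 libraries with Myh7 above 15 FPKM, 2 of them labelled WT, the 10 genes summed to 433, 742 and 459.5 FPKM. They summed to 128.5 to 181 FPKM in the other libraries labelled WT and 169 to 352 FPKM in the others labelled strNrip1-/-. The median was not taken without these 3 libraries.

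The genes whose pattern over the 12 libraries was most like that of each tested member are given as a description, by Pearson's r of log2(FPKM + 0.5), since the libraries share groups and scaling. For Mafa they were Srebf1 (r = 0.959) and Adipor1 (r = 0.958), and for Sox6 they were Uso1 (r = 0.955) and Kif3c (r = 0.948). Maf was closest to Stat5b (r = 0.943) and Phc1 (r = 0.939), Mef2c to Igf1r (r = 0.967) and Foxn3 (r = 0.963), and Tbx15 to Mylk4 (r = 0.958) and Hoxa4 (r = 0.942). Nfatc1 was closest to Ciz1 (r = 0.924) and Mrtfb (r = 0.881), Eya1 to Mettl1 (r = 0.873) and Sp3 (r = 0.869), and Six4 to Gm12439 (r = 0.885) and Tgfb3 (r = 0.867).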

How the data were processed

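RNA-seq of EDL muscle was measured in 12 libraries, 3 in each of 4 groups taken from the sample labels. Per the study's methods and the submitters' processing notes, reads from a kit without strand were quantified with Salmon 1.10.2 on mm10, summed to genes with tximport and tested with DESeq2 1.44.0. The authors deposited an FPKM value for every gene and library, already scaled between libraries. The table also holds 8 columns of the authors' log2 fold changes and adjusted p-values for 4 comparisons, which were not used.

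FPKM is not a count, so values were tested as log2(FPKM + 0.5) with limma 3.58.1 (R 4.3.3) on the 12744 genes whose mean over the 12 libraries reached 0.5 FPKM, with 4 group means, a mean-dependent variance prior and two-sided tests, adjusted by the Benjamini-Hochberg method within each of 7 contrasts. The log2(FPKM + 0.5) scale understates changes of low genes. A gene was called at an adjusted p under 0.05 and a fold change above 1.2 (the interaction by adjusted p alone). The code was tested on simulated data. Depth was estimated from the spacing of low FPKM in genes with 1 transcript longer than 1500 nt, where 99.1% to 99.6% of values came within 0.15 fragments of an integer. Intervals and SEs come from the spread between libraries in the fit. No replicate pair shared identical values, and all 12 pairs differed beyond sampling noise (chi-square per gene 9.72 to 71.9). Per the study's methods the muscles came from a separate cohort of trained and sedentary mice, with 3 in each group, and the labels do not number the animals. All 9 members are named with every library's value. From each related list, genes called in any contrast could be named, at most 3 with the smallest adjusted p, beside Myh7, Myh2, Myh1, Myh4 and Nrip1, and the 2 genes most like each member. The members and lists were chosen with earlier results of these data known. Alternatives changed the pseudocount, filter, scaling, prior, libraries, block and fold limit. Some genes of the related lists are not reported here.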

Additional observations from a re-analysis of the deposited data

How the results depend on the processing

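In up to 24 alternatives the Mafa difference in sedentary libraries and the Mafa and Sox6 differences over both training states kept their direction and their calls. The number of members called in sedentary libraries was 2, and it was 1 with the same sum of nuclear genes, with only the 6 libraries compared and without the 3 libraries with Myh7 above 15 FPKM, and 1 to 2 with 1 library left out. In trained libraries it was 1. It was 0 without the filter, with either rescaling to a common sum, without the mean-dependent prior, with only the 6 libraries compared and without the 3 libraries, it was 2 at a mean of at least 5 FPKM, with quantile normalization and with the replicate block, and it was 0 to 2 with 1 library left out. The cause was not tested. Same-numbered libraries had correlated deviations of -0.105 to 0.241 in 18 pairs, of which 5 were above 0.1. The numbers were not used to pair samples in the main fit, and such correlations cannot exclude a pairing. With the replicate block Maf was also called over both training states (-0.36, limma adjusted p = 0.0345).

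Rescaling to the same sum moved the median of all tested genes by -0.139 in the sedentary contrast, and relative to it Mafa stood at -0.82 and Sox6 at -0.50. The share of called genes that were higher was 54.8% in sedentary and 53.7% in trained libraries, against 18.6% and 80.9% with the same sum and 82.7% and 75.8% with the same nuclear sum. With only the 6 libraries compared, 166 in place of 447 and 445 in place of 762 genes were called, and without the 3 libraries with Myh7 above 15 FPKM 143 and 398. With 1 library left out the counts were 163 to 478 and 315 to 874.

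Sign changes were seen only for differences that were not called. With the same sum, Six4 was -0.012 and Eya1 -0.090 in the sedentary genotype contrast, Tbx15 0.049 and Nfatc1 0.020 in the trained one, Tbx15 -0.0039 for training in labelled WT, Six4 0.14 for training in labelled strNrip1-/-, and Six4 0.10 and Mef2c 0.19 in the interaction. With the same nuclear sum, Mef2c was 0.0010 (sedentary genotype), Tbx15 0.022 (trained genotype), Maf 0.0017 (training, labelled WT) and Nfatc1 -0.0046 (training over both). With quantile normalization, Maf was 0.016 and Six4 0.0035 for training in labelled WT and labelled strNrip1-/-, and Nfatc1 -0.010 for training over both. Without the 3 libraries, Six4 was -0.014 and Eya1 -0.031 (sedentary genotype), Six4 -0.19 and Tbx15 0.049 (trained genotype), Six4 -0.10 (genotype over both), Eya1 -0.072, Tbx15 -0.077 and Maf 0.14 (training, labelled WT) and Six4 0.046 (training, labelled strNrip1-/-). With 1 library left out, genotype values ran from -0.17 to 0.0016 for Mef2c (sedentary), from -0.19 to 0.22 for Six4, from -0.075 to 0.049 for Tbx15 and from -0.12 to 0.028 for Nfatc1 (trained), and from -0.033 to 0.17 for Six4 (over both). Training values in labelled WT ran from -0.018 to 0.20 for Eya1, from -0.14 to 0.24 for Maf, from -0.14 to 0.0039 for Nfatc1, from -0.11 to 0.30 for Six4 and from -0.024 to 0.10 for Tbx15. In labelled strNrip1-/- they ran from -0.018 to 0.16 for Mafa and from -0.085 to 0.081 for Six4, and over both from -0.035 to 0.041 for Nfatc1 and from -0.064 to 0.14 for Six4. Interaction values ran from -0.11 to 0.061 for Mef2c and from -0.31 to 0.096 for Six4.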
